A study of Drosophila melanogaster with 12 samples.

Results

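Polygamous and monogamous males of Drosophila melanogaster were compared at 96 h of adult age, using the 6 libraries of that age out of 12 in the series. The members were taken from the labels: 3 libraries from populations evolved under enforced monogamy, 1 male with 1 virgin female, and 3 from populations evolved in polygamous groups of 5 males with 5 females. All 6 populations came from 1 base population, which the labels call the IV population, and had evolved for 168 generations. No mutant, transgene or drug was named for either regime. Each library pooled the reproductive tracts (accessory glands, testes and ejaculatory duct) of 30 virgin males of 1 population. Replicates are separate lines, 1 pool each, so errors and tests reflect variation among 3 lines a regime, and variation among pools of a line was not measured at this age. In virgin males, regime stands for the history of the line and not for mating by the males measured.

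Most of the seminal fluid comes from the accessory gland. The main cells of the gland secrete sex peptide and other proteins that alter egg laying and remating in the female, and the secondary cells a smaller set under the Hox gene Abd-B. The testis fills the tract with spermatocytes and elongating spermatids, whose transcripts make up much of a whole-tract library. The duct adds its own secretions, and the ejaculatory bulb at its end makes the proteins of the mating plug and waxy lipids. Under polygamy the ejaculates of several males can compete within a female, whereas under enforced monogamy they cannot, and the study asked how this history bears on the expression of male reproductive genes.

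The 96 h libraries held 35376212 to 40581251 counts in genes, and between 14895 and 14968 genes were detected in each. Levels are given as CPM, the count of a gene scaled to the gene total of its library. That total covers genes passing the filter on low counts and was adjusted by TMM factors. Values of a regime are listed in the order of populations 1, 2 and 3. Markers of the labelled tissues were present in every library. The seminal fluid gene Acp36DE lay at 8196 to 10034 CPM, the testis tubulin betaTub85D at 2537 to 2800 CPM, and Abd-B at 18.4 to 22.3 CPM. The labels do not list the ejaculatory bulb among the parts dissected, yet its transcripts were abundant in monogamous populations 1 and 3. Monogamous population 1 also held digestive enzyme transcripts, and its coordinate on the first principal component (31% of the variance) was -41.4, against 0.424 to 21.8 for the others.

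No gene was called between the regimes by the main test. The quasi-likelihood test of edgeR called 0 of 12867 genes (0%) at a Benjamini-Hochberg adjusted p under 0.05, and the smallest adjusted p was 0.725. At an unadjusted p under 0.05 there were 635 genes, 4.94% of those tested, 294 higher (2.28%) and 341 lower (2.65%) in polygamous males. The second tool, DESeq2, called 42 of 13404 genes (0.313%), 11 of them higher (0.0821%) and 31 lower (0.231%) in polygamous males. Ranges of the 3 polygamous and 3 monogamous libraries did not overlap for 1396 genes (10.8%), 719 of which were higher (5.59%) and 677 lower (5.26%) under polygamy. The smallest p that an exact permutation of 3 against 3 libraries can give is 0.1, so single values are described by their ranges. For well expressed genes the fit also bounded the difference. Of 9056 genes averaging 5 CPM or more, 8803 (97.2%) had a 95% confidence interval within 1 on the log2 scale of no difference, and 8103 (89.5%) within 0.5.

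**Figure D1:**
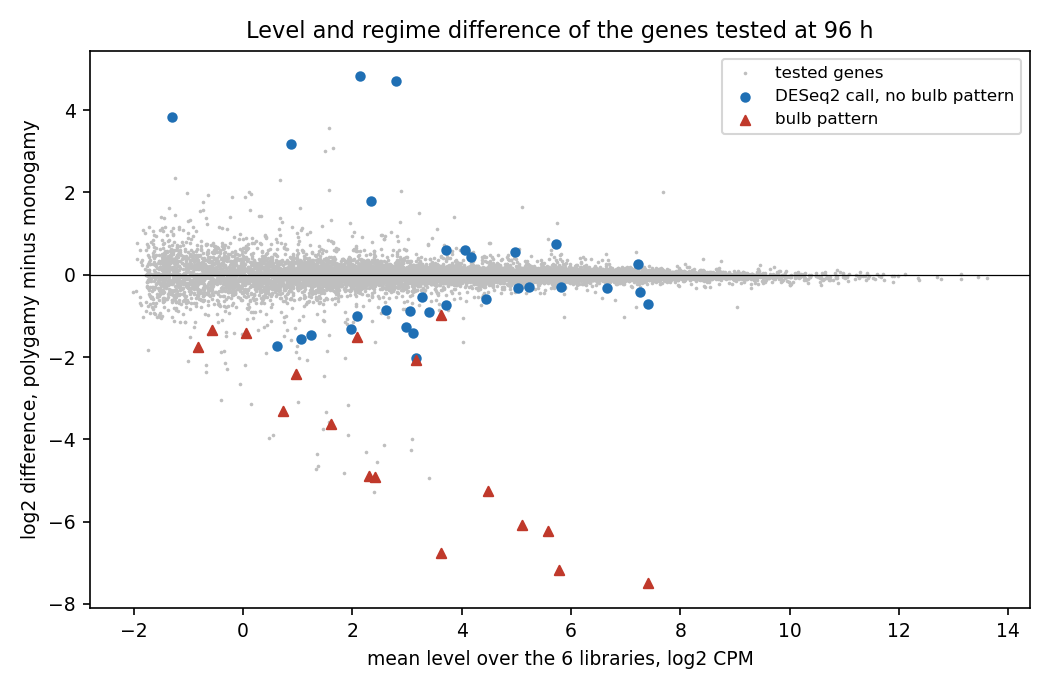
Each point is 1 of the genes tested at 96 h, with its mean level over the 6 libraries (log2 CPM) on the x axis and the edgeR log2 difference, polygamy minus monogamy, on the y axis. Blue points are DESeq2 calls without the bulb pattern and red triangles are genes with it, which reach -7.48, while most grey points lie close to 0.

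A small set of genes stood apart by DESeq2 whichever of the 6 libraries was left out. These were 9 genes, 5 higher under polygamy (lncRNA:CR44612, lncRNA:CR46063, lncRNA:CR43713, CG10700 and glob1) and 4 lower (CG9747, PIP5K59B, CG31157 and Ace), and the ranges of the regimes did not overlap for any of them. None was called by edgeR, with adjusted p from 0.725 to 0.911 for these genes and from 0.0681 to 1 under its alternatives. Errors of log2 differences are standard errors (SE) of the edgeR fit, with 3 libraries a regime.

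Among those higher under polygamy, 3 were long non-coding RNAs, whose roles are not described here. lncRNA:CR44612 (FBgn0265823, chromosome 2L, 7142304 to 7145263) was low in monogamous males, at 0.184, 1.07 and 0.275 CPM, and lay at 15.4, 7.25 and 17.2 CPM in polygamous males. Its log2 difference was 4.70 ± 0.71 (DESeq2 adjusted p = 2.05e-05). The lowest polygamous library was thus several times the highest monogamous one, and polygamous population 2 lay below the other two. lncRNA:CR46063 (2L, 7567929 to 7568438) was similar, at 0.237, 0.602 and 0.05 CPM against 6.80, 6.86 and 11.7 CPM (4.83 ± 0.66, DESeq2 adjusted p = 2.24e-05). In counts its monogamous libraries held 9, 23 and 2 reads, against 247 to 442 in the polygamous ones. lncRNA:CR43713 (2L, 5431842 to 5432604) was present in all 6 libraries, at 2.37, 2.07 and 2.30 CPM against 10.7, 7.98 and 4.76 CPM (1.8 ± 0.29, DESeq2 adjusted p = 9.18e-06). The monogamous lines were tight and the polygamous lines spread, with population 1 the highest.

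Protein-coding genes completed this group. CG10700 (2L, 19077276 to 19079028), for which no role is given here, stood at 0.657, 0.157 and 0.250 CPM in monogamous and at 2.41, 2.33 and 4.94 CPM in polygamous males (3.18 ± 0.56, DESeq2 adjusted p = 1.02e-05). The haemoglobin gene glob1 (3R, 15896926 to 15904643), which encodes an oxygen-binding globin, lay at 22.8, 25.1 and 28.9 CPM against 35.1, 36.9 and 39.9 CPM. Its difference was small but even over the lines, 0.54 ± 0.10 on the log2 scale (DESeq2 adjusted p = 0.00171).

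In the 4 stable genes lower under polygamy, every polygamous line lay below every monogamous one. CG9747, a fatty acid desaturase of the family that puts double bonds into acyl chains, stood at 13.8, 10.4 and 18.7 CPM in monogamous and at 2.01, 4.75 and 3.75 CPM in polygamous males (-2.03 ± 0.37, DESeq2 adjusted p = 2.65e-07). PIP5K59B, a phosphatidylinositol phosphate kinase, was low in all libraries, at 2.89, 2.82 and 3.38 CPM against 0.919, 1.28 and 0.872 CPM. It had the smallest unadjusted edgeR p of all genes, 6.28e-05 (-1.57 ± 0.20, DESeq2 adjusted p = 0.000187). Its exons overlap EMC8-9 and asRNA:CR45469 on the other strand, so part of its count may belong to either. CG31157, with no role given here, stood at 13.3, 11.7 and 12.5 CPM against 6.90, 4.34 and 2.80 CPM (-1.42 ± 0.31, DESeq2 adjusted p = 0.000428). Ace, the acetylcholinesterase that ends cholinergic signalling, stood at 6.96, 8.45 and 8.08 CPM against 4.79, 3.75 and 4.44 CPM (-0.85 ± 0.13, DESeq2 adjusted p = 0.00196). Of the neuron markers, 0 of 11 tested were at an unadjusted edgeR p under 0.05, and their summed share was 0.00491% to 0.00581% of counts under monogamy and 0.00506% to 0.00590% under polygamy.

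**Figure D2:**
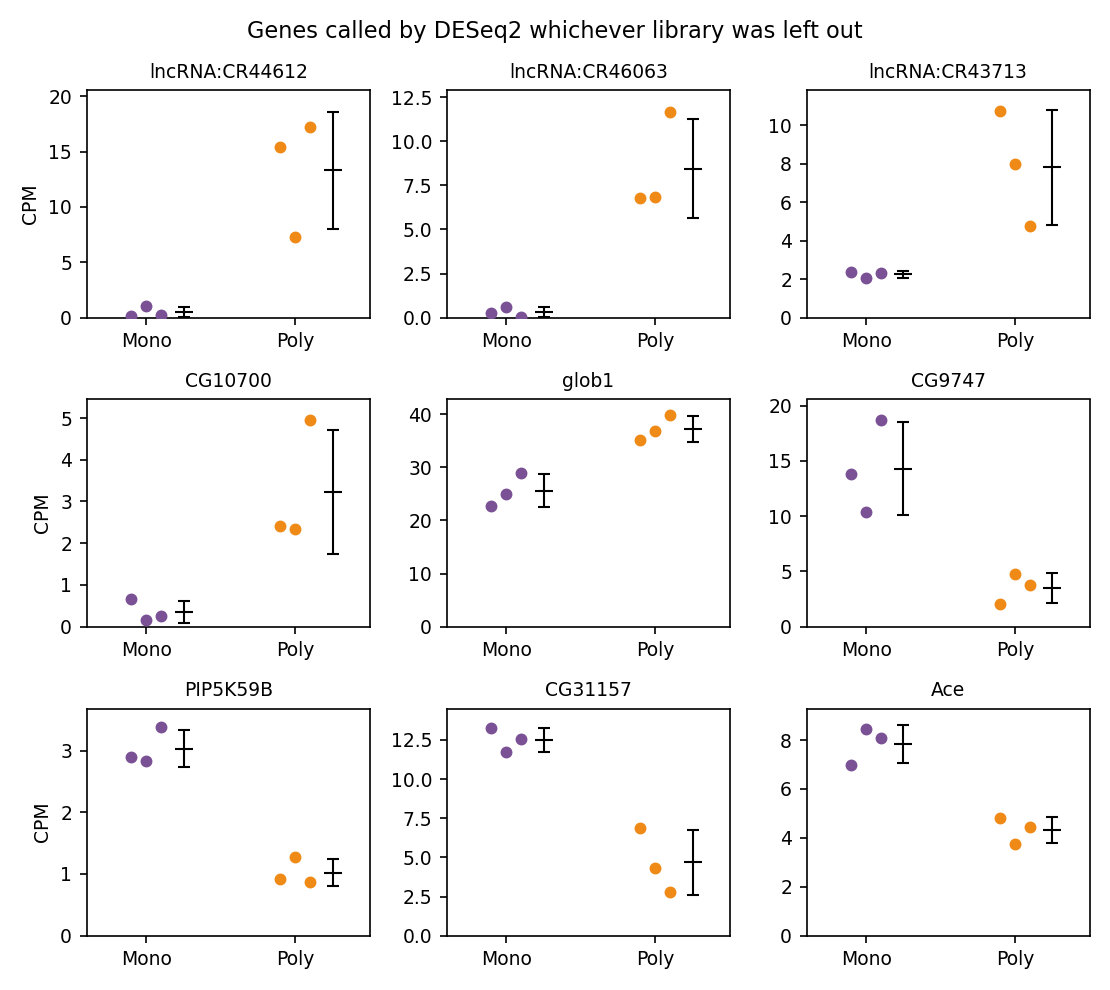
The level in CPM of the 9 genes that DESeq2 called with each library left out in turn, 1 panel a gene, with 1 point for each population (monogamous in purple, polygamous in orange) and mean ± SD (n = 3) beside the points. In every panel the points of the regimes are separate, and glob1 shows a gap of 28.9 to 35.1 CPM between them.

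The other DESeq2 calls lost their call in at least 1 fit without a library. Higher in polygamous males were CG42326 (15.3, 15.0 and 15.4 CPM against 21.8, 19.1 and 20.5 CPM, log2 difference 0.43 ± 0.07) and CG11123 (0.61 ± 0.14), neither with a role given here. The exons of CG11123 overlap sPLA2 on the same strand, and those of Rtf1 overlap lncRNA:CR45327 on the other, so their counts are uncertain. Rtf1, a subunit of the Paf1 complex that travels with RNA polymerase on transcribed genes, stood at 140.1, 137.9 and 129.9 CPM against 167.9, 159.1 and 165.6 CPM (0.27 ± 0.05, DESeq2 adjusted p = 0.00332, a call in 5 of 6 fits without a library, and edgeR adjusted p of 0.341 to 1 under its alternatives). HP6, a member of the heterochromatin protein 1 family, stood at 9.30, 12.0 and 9.61 CPM against 17.3, 14.5 and 15.0 CPM (0.60 ± 0.12). These differences were small, and the regimes were separate for each of the 4 genes. A further 2 non-coding genes were higher. lncRNA:CR43358 lay at 27.4 to 46.8 CPM under monogamy and 60.7 to 69.5 CPM under polygamy (0.74 ± 0.21), while lncRNA:CR45526 had 2, 0 and 3 counts in monogamous and 29, 12 and 35 in polygamous libraries.

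Among the calls lower under polygamy was kl-3, a Y-linked gene for an axonemal dynein heavy chain that sperm need to swim. It stood at 61.4, 63.0 and 62.1 CPM in monogamous and at 50.6, 48.9 and 53.5 CPM in polygamous males (-0.29 ± 0.05, DESeq2 adjusted p = 0.0157, and edgeR adjusted p of 0.523 to 0.999 under its alternatives). Of the 12 Y-linked genes tested it was the one with an unadjusted edgeR p under 0.05. The others had log2 differences from -0.15 to 0.25, and the list's median was -0.0804, against 0.00265 over all genes. It ranged from -0.023 without polygamous population 1 to -0.155 without polygamous population 3. The axonemal dynein genes kl-2 and kl-5 lay at -0.01 ± 0.08 and -0.11 ± 0.08 on the log2 scale. MagR, of the iron-sulphur cluster assembly family, stood at 41.8, 41.1 and 41.1 CPM against 32.1, 35.1 and 34.1 CPM (-0.29 ± 0.06), and its exons overlap Arp6 on the other strand. Sidpn, named for its likeness to the repressor gene deadpan, stood at 37.1, 35.6 and 36.3 CPM against 29.3, 30.6 and 27.1 CPM (-0.33 ± 0.06). For CG5397 the levels were 10.6, 11.9 and 11.7 CPM against 8.47, 7.31 and 7.59 CPM (-0.55 ± 0.10). In these 4 genes the monogamous lines were closely grouped and every polygamous line lay below them.

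Further genes lower by DESeq2 included phr, a photolyase that repairs ultraviolet damage (-0.89 ± 0.22, exons overlapping Prosalpha1 on the other strand) and the selenium-binding protein gene CG7966 (-0.92 ± 0.22). The potassium channel gene SLO2 stood at 16.2, 13.2 and 19.9 CPM against 10.4, 11.0 and 8.09 CPM (-0.75 ± 0.18). The desaturase family gene CG8630 stood at 31.0, 21.1 and 25.8 CPM against 18.4, 15.6 and 17.5 CPM (-0.59 ± 0.14), and the aminopeptidase gene CG8774 at 107.9, 105.2 and 125.0 CPM against 88.9, 95.9 and 84.0 CPM (-0.33 ± 0.08). In all 3 genes monogamous population 2, with little Ebp, was the lowest of its regime and lay above every polygamous line. CG4230, CG13833, CG3502 and the non-coding genes lncRNA:CR43239, lncRNA:CR44345, lncRNA:CR44759 and lncRNA:CR44955 completed those that edgeR also tested, at -1.72 to -0.42. CG3502 overlaps CG9863 and CG4230 overlaps ND-13A on the other strand. For Jon99Fi, a digestive serine protease gene that edgeR's filter left out, the call rested on monogamous populations 1 and 2, at 16.2 and 2.20 CPM against 0.0248 to 0.0834 CPM in the other 4 libraries.

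Where the called genes lie was described from the BDGP6.54 annotation. Of the 42 DESeq2 calls, 13 were among 2632 genes tested on chromosome arm 2L, 12 among 2595 on 2R and 12 among 3225 on 3R. There were 4 among 1986 on X, 1 among 26 on Y, 0 among 2608 on 3L and 0 among 91 on chromosome 4. Over all genes tested the share was 0.313%. Within 100 kb of another call lay 13 of the 42 (31%), against 6.73% of all genes that DESeq2 tested and the annotation placed. Neighbours moved in 1 direction in 5 of 8 pairs and in opposite directions in 3. Ace, CG8630 and CG8774, all lower, lie on 3R within 39.2 kb of each other, and CG31157 and CG7966, also lower, are 0.1 kb apart on 3R. lncRNA:CR43239 and lncRNA:CR44345, both lower, are 0.2 kb apart on 2L. Opposite pairs were Sidpn (lower) with CG10700 (higher), lncRNA:CR44759 (lower) with Rtf1 (higher), and lncRNA:CR45526 (higher) with MagR (lower). Non-coding RNA genes made up 9 of the 42 (21.4%), against 11.2% of those tested, and 5 were higher and 4 lower under polygamy. How strand was used in counting is not given in the sources used here. Reads of close or overlapping neighbours may be shared.

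A separate set of genes was highest in monogamous populations 1 and 3. The bulb pattern was given to a gene whose CPM in both of these libraries was at least 2 times the highest of the other 4. Of the genes tested 17 had it (0.132%), and so did 19 of all deposited genes when those averaging 1 CPM or more are counted, 5 of which the filter on low counts removed. Ebp, an ejaculatory bulb protein of the mating plug, reached 517.6 CPM in monogamous population 1 and 499.7 CPM in population 3, but 0.889 CPM in population 2 and 3.25, 0.75 and 1.59 CPM in polygamous males. Monogamous population 2 thus lay with the polygamous libraries, and the regimes overlapped. EbpII stood at 143.9, 0.105 and 139.9 CPM against 1.86, 0.472 and 1.37 CPM. In pooled tissue, more cells of a type and more RNA per cell cannot be told apart.

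Seminal fluid genes made up 6 of the 19. Sfp87B stood at 158.6, 0.105 and 170.0 CPM against 1.12, 0.333 and 0.793 CPM, and Sfp60F at 98.2, 0.131 and 105.5 CPM against 1.56, 0.389 and 1.00 CPM. Obp56g, an odorant-binding protein found in the mating plug, stood at 54.4, 0.915 and 74.8 CPM against 1.46, 0.917 and 0.978 CPM. Sfp24Bb reached 33.4 and 39.0 CPM, Acp24A4 15.2 and 15.2 CPM and Sfp24Ba 16.3 and 14.0 CPM in monogamous populations 1 and 3, and none of them passed 0.372 CPM elsewhere. Genes of lipid metabolism with the pattern were the fatty acyl-CoA reductase genes CG30427 (12.5 and 15.3 CPM in these libraries, at most 0.549 CPM elsewhere) and CG12268, the elongase gene Elo68alpha and the lipase gene CG18301, the latter 3 at 2.25 to 6.73 CPM against at most 0.223 CPM. CG2663 and CG10657 encode lipid-binding proteins of the CRAL-TRIO family, and reached 2.89 to 9.48 CPM in monogamous populations 1 and 3 and at most 0.77 CPM elsewhere. The rest had no role given here. CG34038 stood at 16.9 and 22 CPM in those libraries and at most 5.10 CPM elsewhere, CG9380 at 19.7 and 21.7 CPM against at most 9.44 CPM, and CG11147 at 7.44 and 9.41 CPM against at most 2.46 CPM. CG16820 stood at 3.86 and 4.28 CPM against at most 0.523 CPM, and CG12990, whose exons overlap beta-Spec on the other strand, at 4.63 and 1.98 CPM against at most 0.0556 CPM. For CG16820, CG30427 and CG2663 monogamous population 2 also lay above every polygamous line. It stood at 0.523, 0.549 and 0.706 CPM, against at most 0.344, 0.422 and 0.556 CPM under polygamy. For the rest of the 19 genes it did not.

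Their places in the genome were partly shared. CG34038, Sfp60F, EbpII, Ebp and CG9380 lie on 2R between 25167659 and 25255318, and Sfp24Ba, Sfp24Bb and Acp24A4 on 2L between 3667977 and 3693905. EbpIII, the remaining bulb marker tested, lies elsewhere on 2R and did not reach the 2 times that the pattern requires. It was still highest in monogamous populations 1 and 3, at 56.9, 44.1 and 60.6 CPM against 46.3, 45.8 and 46 CPM (-0.23 ± 0.11).

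Ebp had the largest log2 difference of all genes tested, while resting on 2 of 3 monogamous lines, at -7.48 ± 2.38 (95% confidence interval -13.87 to -1.10), Sfp87B -7.17 ± 2.35, Sfp24Bb -6.77 ± 2.21, EbpII -6.23 ± 2.18, Sfp60F -6.08 ± 2.12 and Obp56g -5.26 ± 1.70. The edgeR adjusted p was 0.911 for each. Of the 17 genes 12 were at an unadjusted p under 0.05. Of these, 6 were not after the summed level of the bulb markers was added to the model. Of the other 6, 4 turned sign with the covariate, EbpII to 3.37, Sfp60F to 2.70, Sfp87B to 2.56 and Acp24A4 to 1.41, and CG16820 and CG30427 stayed lower, both at -0.94. The covariate contains Ebp and EbpII, and all 17 genes were picked for high levels in the 2 libraries where it is high. These changes were thus largely fixed by the selection, and the covariate cannot test the pattern. Without monogamous population 2, edgeR called 23 genes, 21 of them lower, and 20 of the 23 had the pattern. Of the 42 DESeq2 calls 10 had it: Ebp, Sfp87B, Obp56g, Sfp24Bb, CG30427, CG16820, CG2663, CG12990, CG15649 (1.5 and 2.03 CPM in monogamous populations 1 and 3, at most 0.0523 CPM elsewhere) and CG9514 (1.87 and 2.25 CPM, at most 0.211 CPM elsewhere). Without monogamous populations 1 and 3, DESeq2 called 81 genes, 48 higher and 33 lower, and 12 of them were among the 42, while edgeR called 1, CG1941, higher under polygamy and named here after its value was seen. Both fits assume that the single monogamous library left varies like the polygamous ones. The other 32 calls did not have the pattern, and of the 31 that edgeR tested 27 had an unadjusted p under 0.05 with the bulb covariate in its model. The exceptions were CG8630 (-0.31 with the covariate), CG8774 (-0.24), SLO2 (-0.44) and lncRNA:CR44955 (-1.09), which stood at 11.6, 9.55 and 11.8 CPM against 2.61, 7.50 and 3.67 CPM. For CG9747 the log2 difference was -1.6 with the covariate, and monogamous population 2, with little Ebp, lay above every polygamous line. At the same threshold 329 genes lower under polygamy did not have the pattern.

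**Figure D3:**
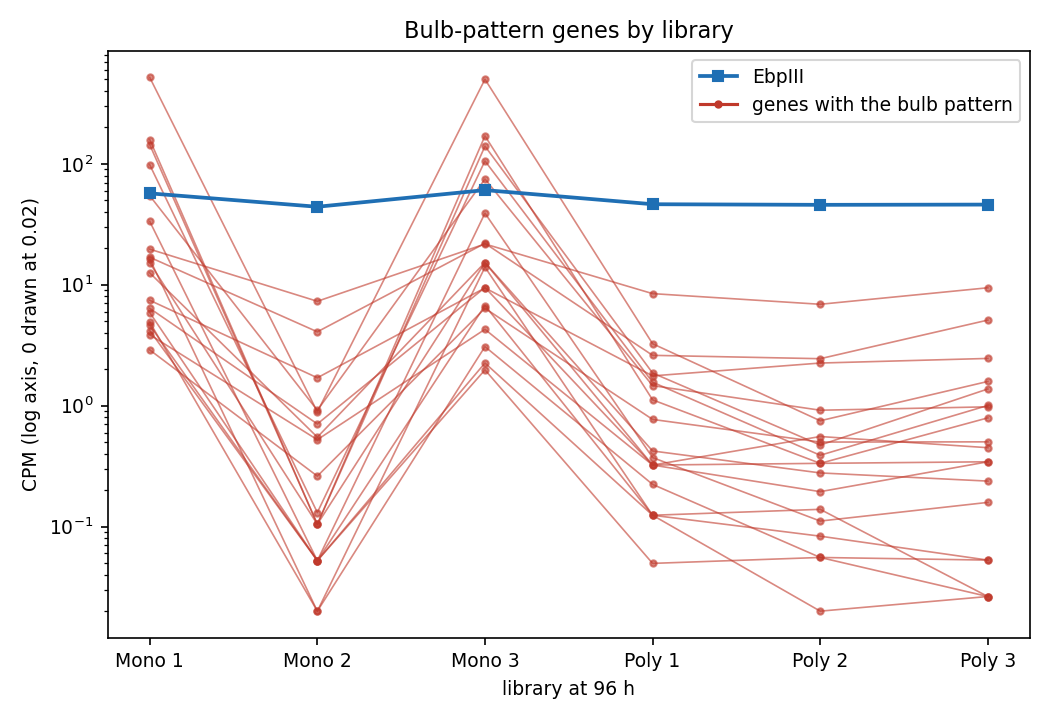
The level in CPM (log axis, with 0 drawn at 0.02) of the 19 genes with the bulb pattern averaging 1 CPM or more, in the 6 libraries of 96 h, where a line joins the values of 1 gene. Red lines peak in monogamous populations 1 and 3, Ebp reaching 517.6 and 499.7 CPM, and the blue line of EbpIII stays between 44.1 and 60.6 CPM.

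The summed digestive enzyme transcripts were highest in monogamous population 1, but not those of every gene. At 5 CPM or more, 41 genes were at least 3 times higher in its library than in any of the other 5, against 0 or 1 gene for each other library, and 9 of them were on the list of gut enzymes. The trypsin gene alphaTry stood at 17.3, 3.53 and 0.275 CPM against 0.223, 0.889 and 0.317 CPM. Amy-p, Amy-d and LysB of the list were highest in polygamous population 1 instead, at 8.14, 5.88 and 16.6 CPM. In monogamous population 1 they stood at 6.62, 4.81 and 12.3 CPM, and LysD was highest in monogamous population 3. The gut list took 0.0252% of counts in monogamous population 1, 0.0109% to 0.0110% in the other monogamous and 0.00845% to 0.00945% in the polygamous libraries. Its median log2 difference was -3.37, and -0.68 without monogamous population 1, while 0 of 12 members tested were at an unadjusted p under 0.05. The part of these transcripts in other results was not tested beyond the fits without this library.

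Seminal fluid proteins apart from the bulb set differed little between the regimes. Of 78 named seminal fluid genes tested, edgeR called 0, and 1 was higher and 7 lower at an unadjusted p under 0.05, of which 5 had the bulb pattern. Their summed share of counts was 4.6%, 4.65% and 5.83% in monogamous and 5.34%, 4.98% and 4.81% in polygamous males, so the ranges overlapped and monogamous population 3 was the highest. The median log2 difference was -0.03, against 0.00265 over all genes. With size factors from testis genes it was 0.01, against 0.0429 over all genes. It was 0.082 without monogamous population 3 and -0.102 without monogamous population 2, so it had no fixed sign. Of the 73 without the pattern, 1 was higher and 2 lower, 4.11% against 4.94% over all genes. Acp76A, a serpin of the seminal fluid, stood at 677, 727 and 800 CPM against 628, 630 and 638 CPM (-0.22 ± 0.06). Spn28B, also a serpin, lay at -0.21 ± 0.08, and Sfp79B at 0.43 ± 0.16, with 4.35 to 4.58 CPM against 5.21 to 7.48 CPM.

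Sex peptide, the gland protein that lowers female remating, lay at 302.7, 380.6 and 461.3 CPM in monogamous and at 445.0, 445.7 and 370.1 CPM in polygamous males. The groups overlapped, and the log2 difference of SP was 0.14 ± 0.17 (95% confidence interval -0.27 to 0.55). SP and the network that binds it to sperm together gave 0 of 9 genes at an unadjusted p under 0.05. Their log2 differences ran from -0.10 (antr) to 0.14, that of SP itself. Acp26Aa, or ovulin, which raises ovulation, lay at -0.12 ± 0.07 (-0.29 to 0.05), and Acp36DE, needed for sperm storage, at 0.02 ± 0.09 (-0.18 to 0.21). For Dup99B, the duct peptide related to sex peptide, the lines spread from 580.7 to 1162 CPM under monogamy and from 742.3 to 1086 CPM under polygamy (0.19 ± 0.34). The network gene lectin-46Ca had 0.05 ± 0.11 and Abd-B 0.03 ± 0.08. The accessory gland gene msopa stood at 124.0, 109.1 and 119.1 CPM against 235.0, 112.9 and 171.8 CPM (0.56 ± 0.27), with polygamous population 2 inside the monogamous range. Obp99b was near 1 CPM in both regimes (0.15 ± 0.67). Of 11 duct genes and 12 secondary cell genes, 0 were at an unadjusted p under 0.05.

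In the germline, the summed shares of the early germline, spermatocyte and spermatid lists overlapped between the regimes. The testis tubulin betaTub85D lay at -0.02 ± 0.05 (-0.14 to 0.10) and bam, which starts spermatocyte differentiation, at 0.07 ± 0.13, with exons overlapping CG11854 on the other strand. Of 41 spermatid and sperm genes, 0 were higher and 3 lower at an unadjusted p under 0.05, 7.32% against 4.94% over all genes. The median was -0.0508, and -0.0209 without polygamous population 1 and -0.0253 without monogamous population 2. The sperm tail genes Mst84Db and Mst84Dc lay at -0.19 ± 0.06 and -0.17 ± 0.07, and the sperm leucyl aminopeptidase gene S-Lap7, at 5378 to 5590 CPM against 4796 to 5268 CPM, at -0.14 ± 0.05. Mst87F of the same sperm tail family stood at 937 to 1008 CPM against 815 to 935 CPM (-0.14 ± 0.06, just outside that threshold). Of 19 spermatocyte regulators 1 was at that threshold: topi, a meiotic arrest gene needed for spermatocyte transcription, stood at 78.4, 84.7 and 79.6 CPM against 88.9, 94.6 and 91.1 CPM (0.18 ± 0.05). None of 15 early germline genes was, nor were any lower among 32 cell cycle and replication genes, where CycE, Mcm6 and RnrL were higher at 0.20 to 0.30. These 3 were 9.38% of the list, against 4.94% over all genes. In that list 8 genes were higher without overlap, where 5.59% of all genes were, and 0 lower, where 5.26% were. Its summed shares overlapped, at 0.124% to 0.132% under monogamy and 0.130% to 0.140% under polygamy.

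Lists of secretion, energy and somatic tissue gave 4 of the 5 cases, among 31 lists, in which the summed shares of the regimes did not overlap, the remaining one being the gut enzymes. Among single genes tested, 10.8% did not overlap. ER translocation and folding genes took 0.665% to 0.691% of counts under monogamy and 0.700% to 0.779% under polygamy, and COPI, COPII and Golgi traffic genes 0.339% to 0.353% against 0.355% to 0.377%. Of 31 genes tested in each list 1 was at an unadjusted edgeR p under 0.05, 3.23% against 4.94% over all genes. The chaperone gene Gp93 stood at 628, 651 and 666 CPM against 749, 712 and 696 CPM (0.15 ± 0.05), its exons overlapping CG4951 on the other strand. Membrin, a Golgi fusion protein gene, had 0.17 ± 0.07 and overlaps Pfdn4 on the other strand. Members were higher in 27 of 31 and 28 of 31 cases, against 6563 of 12867 over all genes, and the medians were 0.0605 and 0.0588. Without polygamous population 1 they were 0.0358 and 0.0225. With size factors from testis genes both were 0.10, and the median over all genes was 0.0429.

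Nuclear oxidative phosphorylation genes took 0.732% to 0.742% under monogamy and 0.751% to 0.766% under polygamy, and 2 of 87 were higher and 2 lower at an unadjusted p under 0.05, 4.6% against 4.94% over all genes. The ATP synthase genes ATPsynE and ATPsynCF6 lay at 0.19 ± 0.07 and 0.13 ± 0.05. ATPsynGL and COX7AL, named for their likeness to subunits of ATP synthase and of cytochrome c oxidase, lay at -0.29 ± 0.08 and -0.12 ± 0.05. Of 14 mitochondrially encoded genes 2 (14.3%) were lower, mt:CoI (-0.18 ± 0.08) and mt:ND4 (-0.23 ± 0.09, overlapping mt:ND4L on the same strand). Monogamous population 3 had the highest mitochondrial share, 2.13%, against 1.71% to 1.82% in the other 5 libraries.

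Of the muscle genes none was called by edgeR. The tract has a muscle sheath, and 5 of 19 muscle genes tested (26.3%, against 4.94% over all genes) were higher and 0 lower at an unadjusted p under 0.05, with a median of 0.154 that ranged from 0.0566 without monogamous population 2 to 0.171 without polygamous population 2. Prm, the paramyosin of thick filaments, stood at 82.8, 77.8 and 78.4 CPM against 92.9, 91.7 and 93.0 CPM (0.22 ± 0.05). Mhc, the muscle myosin heavy chain, lay at 0.19 ± 0.06, the myofilin gene Mf at 0.19 ± 0.07, Mp20 at 0.17 ± 0.06 and the troponin T gene up at 0.16 ± 0.06. The actin genes Act57B and Act87E lay at -0.03 ± 0.05 and 0.02 ± 0.05. Summed muscle shares were 0.210% to 0.221% under monogamy and 0.223% to 0.233% under polygamy.

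Other lists held few genes below that threshold, which 4.94% of all genes passed, and nothing about a list is read from its count. Of 25 odorant-binding protein genes 2 were lower, Obp56g and Obp50d (-0.35 ± 0.15), and of 33 serine protease and inhibitor genes 1 was, Spn28B. The 81 ribosomal protein genes had 1 (RpS13, 0.13 ± 0.05), 123 detoxification genes had 5 higher and 2 lower, and 33 cuticle genes had 2 lower. Among the detoxification genes Cyp4p1 (0.78 ± 0.31) and Cyp4p2 (0.63 ± 0.24) are neighbours on 2R, and GstE10 was at -1.11 ± 0.41 and overlaps GstE1 on the other strand. Among 17 immune genes the peptidoglycan recognition genes PGRP-SC2 (-2.66 ± 0.74) and PGRP-SC1b (-1.83 ± 0.69) were low, at 2.33 CPM or less in every library. PGRP-SC2 stood at 2.02, 2.33 and 0.375 CPM against 0.248, 0.361 and 0.132 CPM. The circadian clock list had 1 of 10 genes, the testis somatic list 2 of 11, the haemocyte and basement membrane list 1 of 15 and the dosage compensation list 1 of 7. Of these the clock gene tim (0.29 ± 0.12), the hedgehog receptor gene ptc (0.33 ± 0.11), the peroxidasin gene Pxn (0.21 ± 0.08, overlapping lncRNA:CR45660 on the same strand and CG16986 on the other) and the dosage compensation helicase gene mle (0.14 ± 0.06) were higher, and the homeobox gene so (-0.31 ± 0.11) was lower. Collagen IV, the basement membrane protein whose alpha chain vkg encodes, varied between lines more than between regimes, at 23.9, 13.3 and 26.6 CPM against 24.9, 21.5 and 27.7 CPM (0.21 ± 0.27). Hsp27 (0.17 ± 0.07) and DnaJ-1 (-0.27 ± 0.11) of 17 heat shock genes went in opposite directions, and Hsp27 overlaps CR43483 on the other strand. None of the tested fat body (8), Malpighian tubule (8) or hormone pathway (23) genes was at the threshold.

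**Figure D4:**
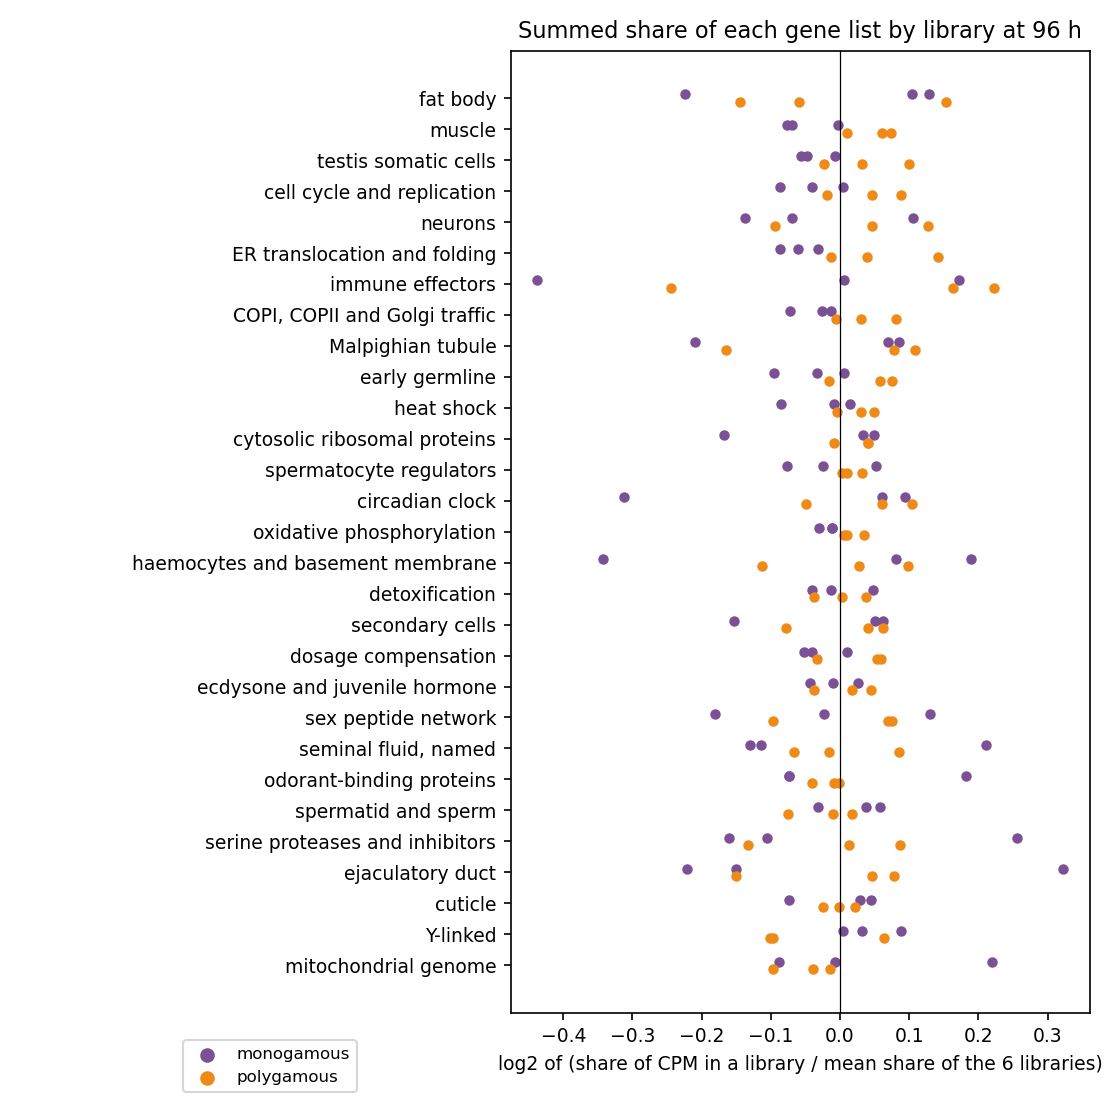
The summed share of CPM of 29 gene lists in each library, on the x axis as log2 of the share over the mean of the 6 libraries, with 1 row for each list ordered by its median log2 difference and 1 point for each library. The ejaculatory bulb and gut lists are left out because their range is far wider. The regimes are separate for muscle, ER folding, Golgi traffic and oxidative phosphorylation, all higher under polygamy.

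Values at 48 h, from other pools of the same 6 populations, were set beside those at 96 h. The TMM factors behind CPM at 48 h came from all 12 libraries, and those at 96 h from the 6 of that age. Both ages share the lines, so the earlier age adds pools but no further lines. At 48 h edgeR called 0 of 12757 genes (0%), 1015 (7.96%) were at an unadjusted p under 0.05 and 2894 (22.7%) did not overlap between regimes. Several seminal fluid genes, though not all, were lowest in monogamous population 1 at that age. Acp36DE lay at 2772, 11035 and 13865 CPM against 14668, 14191 and 14350 CPM. For lectin-46Ca the levels were 36.7, 260 and 334 CPM against 365 to 424 CPM. Dup99B was highest in that population instead, at 2374 CPM against 1294 to 1326 CPM under polygamy. The 48 h differences given here include this library and may depend on it. Of the 31 DESeq2 calls of 96 h without the bulb pattern that were tested at 48 h, 28 had the same direction, against 65.9% of all genes tested at both ages. Of these 31, 20 did not overlap in that direction at 48 h and 18 had an unadjusted p under 0.05.

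The non-coding genes higher under polygamy were so at both ages. lncRNA:CR44612 stood at 0.0660, 0.671 and 0.248 CPM against 14.9, 6.43 and 18.7 CPM at 48 h, with polygamous population 2 again the lowest. lncRNA:CR43713 stood at 1.12, 1.44 and 2.1 CPM against 13.3, 11.2 and 7.53 CPM, with the polygamous lines in the same order as at 96 h, and its log2 difference was 2.77 ± 0.31 at 48 h and 1.8 ± 0.29 at 96 h. A test of that difference of differences gave an unadjusted p of 0.00305 (edgeR adjusted p = 0.726). PIP5K59B (-1.32 ± 0.31), CG31157 (-1.56 ± 0.36) and Ace (-0.87 ± 0.39) were lower at 48 h too, Ace with overlap, since monogamous population 1 lay at 3.33 CPM.

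A few calls were not seen at 48 h. CG9747 stood at 1.81, 11.3 and 3.15 CPM against 3.50, 5.15 and 3.58 CPM there (-0.42 ± 0.66). For glob1 the sign was opposite at 48 h, with overlap, at 81.5, 60.9 and 75.3 CPM against 68.1, 62.2 and 54.3 CPM (-0.24 ± 0.13). The change of the regime difference of glob1 between the ages was 0.78 ± 0.18 (unadjusted p = 0.00311, edgeR adjusted p = 0.726). CG8630 (0.45 ± 0.27) and CG8774 (0.18 ± 0.48) also had the opposite sign at 48 h, both with overlap. For CG8630 monogamous population 1 was the lowest library of that age, at 15.0 CPM. Monogamous populations 2 and 3 stood at 26.2 and 32.2 CPM, and the polygamous lines at 31.1 to 34.9 CPM. For CG8774 only monogamous population 1, at 36.5 CPM, lay below the polygamous lines (119.5 to 126.9 CPM) there. Monogamous populations 2 and 3, at 137.1 and 150.7 CPM, lay above every polygamous line, as at 96 h. The Y-linked gene kl-3 lay at -0.05 ± 0.08 at 48 h. Across all 13156 genes the test of the difference between the ages called 0 (0%), with 681 (5.18%) at an unadjusted p under 0.05. Without both libraries of monogamous population 1 this test called 110 genes, 5 with a larger and 105 with a smaller polygamy-minus-monogamy difference at 96 h.

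The bulb gene Ebp was low at 48 h in all lines. It stood at 4.45, 0.575 and 5.96 CPM in monogamous and at 8.53, 1.60 and 0.837 CPM in polygamous males, and 1 of 7 DESeq2 calls with the pattern that were tested at 48 h had non-overlapping regimes there. Across all genes the smallest adjusted p for the difference between the ages was that of Sfp24Ba, 0.0866, which missed the threshold.

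**Figure D5:**
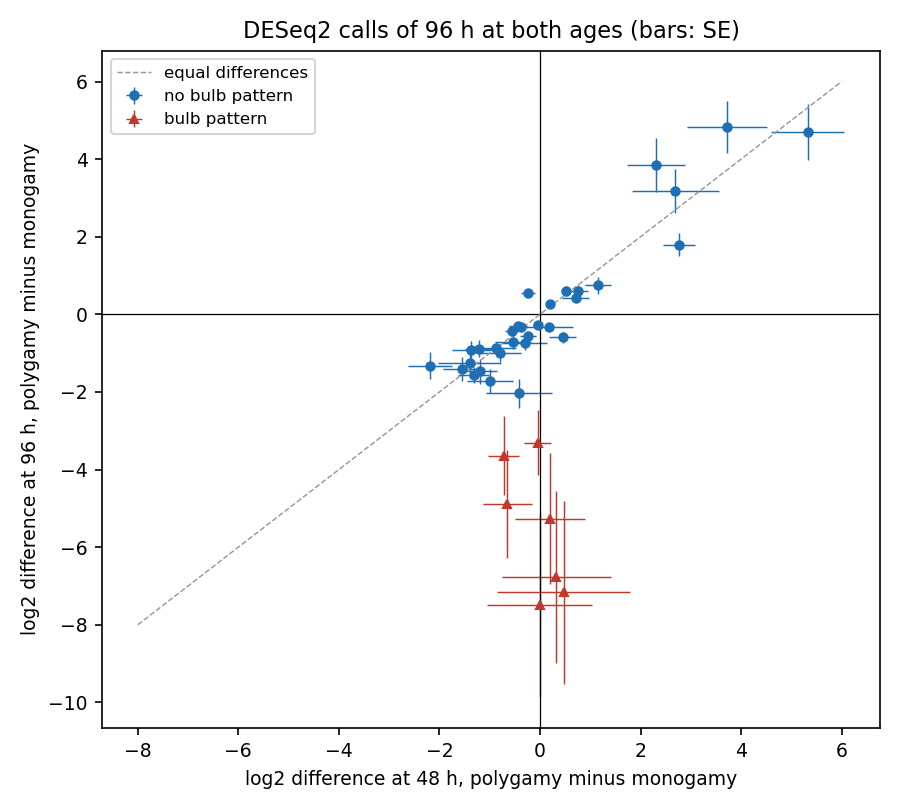
The edgeR log2 difference, polygamy minus monogamy, at 48 h (x axis) and at 96 h (y axis) of the DESeq2 calls of 96 h that were tested at both ages, with SE as bars. Genes without the bulb pattern (blue) mostly lie near the dashed line of equal differences, with glob1, CG8630 and CG8774 on the other side of 0, and those with it (red triangles) lie near 0 at 48 h and down to -7.48 at 96 h.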

How the data were processed

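Counts were deposited by the authors as 1 table of raw read counts per gene and library. HTSeq 0.6.1, TopHat2 2.1.0, Trimmomatic 0.33 and build BDGP6 are named in the submitters' processing notes. Counting mode, strand setting and annotation release: not given in the sources used here. Each table listed 17559 genes and 5 summary lines (15.1% to 16.1% of reads at 96 h), which stayed out of library sizes and tests. Symbols and positions came from Ensembl BDGP6.54, which gave a symbol to 17252 genes, and overlaps are between annotated exons. Libraries were grouped by the labels, and no files were identical. At 96 h, 3 counts were worth 0.0739 to 0.0848 CPM before TMM scaling, and counts limit the precision only for low genes.

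The main test, on the 6 libraries alone, was edgeR 4.0.16 (quasi-likelihood, robust, TMM, filterByExpr, with limma 3.58.1 in R 4.3.3). A call needed a p under 0.05 after Benjamini-Hochberg adjustment. DESeq2 1.42.0 was an alternative, and its adjusted p was missing for 2482 genes. The bulb covariate was log2 of the summed CPM of Ebp, EbpII and EbpIII plus 0.1. The other listed bulb marker, Elo68alpha, was not part of it, since the filter on low counts removed it. Differences between the ages were tested in edgeR over 12 libraries with the population as a block. The scripts were tested on simulated data. Since edgeR called no gene, those named are the 6 with the smallest p in each direction at 5 CPM or more, the same for the bulb pattern, a fixed panel, and list members at an unadjusted p under 0.05. All DESeq2 calls are named besides, chosen after their values were seen. The comparison, the 31 lists and the tests were chosen with earlier results of these data known. P-values measure the spread between lines with 1 pool each, in which variation of line, pool and library cannot be told apart.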

Additional observations from a re-analysis of the deposited data

How the results depend on the processing

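With edgeR the count of 0 genes called at 96 h stayed 0 with RLE size factors (639 at an unadjusted p under 0.05), size factors from testis genes (615), no filter (703), a mean of at least 1 CPM (570), all 12 libraries in the fit (439) and the bulb covariate (736). It was 1 without monogamous populations 1 and 3 and 0 to 23 with 1 library left out, 23 without monogamous population 2. DESeq2 gave 42, and 34 to 87 with 1 library left out, 76 without monogamous population 2 and 87 without monogamous population 3, and 81 without monogamous populations 1 and 3. These DESeq2 repeats, and a bulb pattern at 3 times (13 genes in place of 17), were chosen after seeing the data. The replicate block, which pairs populations of 1 number, gave 0 calls (777 unadjusted). Deviations of same-numbered populations correlated at -0.146, 0.202 and -0.0324, and the lines share only a number. For the difference between the ages the count was 0 with the population block, 0 with no replicate block (336 unadjusted) and 110 without monogamous population 1. The median log2 difference over all genes was 0.00265, and 0.0429 when scaled to testis genes. Over 202 genes and 3024 alternative values, 253 changed sign and 50 passed the threshold in the same direction. As the main test called no gene, no called value could reverse. Of the DESeq2 calls with the bulb pattern, Ebp (0.83), Sfp87B (2.56), Sfp24Bb (1.74) and Obp56g (0.10) changed sign with the bulb covariate. That covariate is high in the same libraries by which the pattern was picked, so such changes were largely fixed in advance. CG30427 and CG16820 (both -0.94) and CG2663 (-0.79) stayed lower, and edgeR did not test the others. The causes were not tested. Depth limits genes near 3 counts, such as lncRNA:CR45526.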
